A study of Homo sapiens with 12 samples.

Results

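The AP-1 transcription factors measured here were 10 genes: FOS, FOSB, FOSL1 and FOSL2 of the FOS family, JUN, JUNB and JUND of the JUN family, and the related factors ATF3, MAFF and BATF3. They were chosen by name from the gene column of the deposited table, in which each name matched 1 row, so 10 of 57773 genes are described. All 10 passed the filter on low counts, which left 20571 genes tested. The samples were MDA-MB-231 cells, an established line of human triple-negative breast cancer, given TGFβ for 48 h, alisertib for 48 h, TGFβ and alisertib together for 48 h (called the combination), or no treatment, with 3 libraries in each of the 4 groups. TGFβ is a cytokine whose receptors activate SMAD proteins, and alisertib blocks Aurora A, a kinase of mitosis. The labels name no dose and no vehicle, and all groups come from this 1 cell line. Whether the 3 libraries of a group are separate cultures is not stated, so the p-values cover the spread between libraries, which may be technical.

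AP-1 is a dimer of basic leucine zipper (bZIP) proteins. JUN proteins pair with themselves or with FOS proteins, whereas FOS proteins need a JUN partner, and the dimers bind the TPA response element or the closely related cyclic AMP response element. Several members are immediate early genes, whose transcripts appear and decay quickly after growth factors or stress activate MAP kinases. In invasive breast cancer lines FOSL1 (FRA-1) is known as an abundant member, and AP-1 is known to cooperate with SMAD proteins at TGFβ-responsive genes.

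Total counts were 110282980 to 118220032 per library with TGFβ, 97048328 to 105563951 with alisertib, 105921831 to 120619368 with the combination and 93701658 to 100328721 in untreated cells. The labelled line was checked against markers. VIM, CD44, CAV1 and EGFR each lay at 381.8 CPM or more in every library, while ESR1 and PGR did not exceed 0.0423 CPM and ERBB2 lay at 48.5 to 73.2 CPM. CPM are counts relative to the library size after TMM scaling. Of 5 leukocyte markers summed, the level was 1.02 to 1.16 CPM with TGFβ, 1.5 to 1.93 with alisertib, 0.867 to 0.962 with the combination and 1.46 to 3.16 in untreated cells. For 3 endothelial markers the sums were 0.63 to 0.938 CPM with TGFβ, 0.513 to 0.601 with alisertib, 0.78 to 1.13 with the combination and 0.514 to 0.644 in untreated cells. For 4 luminal markers they were 144 to 198 CPM with TGFβ, 97.2 to 123 with alisertib, 135 to 189 with the combination and 84.7 to 129 in untreated cells, nearly all of it KRT19, with FOXA1 at no more than 0.0581 CPM. The part of these cell types in the results was not tested. In each group 1 library differed most from the others, namely TGFβ 6, alisertib 9, combination 10 and untreated 1. In these libraries GC-rich genes tended to read low relative to the group mean, the Spearman rho over genes being -0.49, -0.44, -0.53 and -0.56 in that order of libraries. This is a description, since genes are not replicates. They are called the 4 libraries that stood apart. The distinction was least clear in the alisertib group, where library 8 lay between 7 and 9. A chi-square of counts per degree of freedom was 9.53 between alisertib 7 and 8, 11.2 between 8 and 9 and 21.9 between 7 and 9. Results for the members are given without these 4 libraries where that changes a call, and some list counts are given without them too.

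The promoters of the 3 members with the widest range of levels between groups are shown first, because these genes moved together under TGFβ. The sequences are from RefSeq on GRCh38.p14, 5′ to 3′ on the strand of the gene, and run over the 250 bases that end just before the annotated start. Capitals mark every match to the motifs searched.
JUNB, chr19:12791236-12791485, plus strand: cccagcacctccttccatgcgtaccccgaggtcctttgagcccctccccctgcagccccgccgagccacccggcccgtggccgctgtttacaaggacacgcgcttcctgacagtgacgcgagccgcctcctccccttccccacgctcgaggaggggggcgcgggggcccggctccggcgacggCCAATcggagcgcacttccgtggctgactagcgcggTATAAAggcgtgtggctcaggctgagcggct
JUN, chr1:58784048-58784297, minus strand: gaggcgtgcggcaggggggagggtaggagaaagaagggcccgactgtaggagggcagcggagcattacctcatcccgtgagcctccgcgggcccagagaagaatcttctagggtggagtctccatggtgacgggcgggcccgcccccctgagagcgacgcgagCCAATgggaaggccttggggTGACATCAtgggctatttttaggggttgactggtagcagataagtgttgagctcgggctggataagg
FOSB, chr19:45467746-45467995, plus strand: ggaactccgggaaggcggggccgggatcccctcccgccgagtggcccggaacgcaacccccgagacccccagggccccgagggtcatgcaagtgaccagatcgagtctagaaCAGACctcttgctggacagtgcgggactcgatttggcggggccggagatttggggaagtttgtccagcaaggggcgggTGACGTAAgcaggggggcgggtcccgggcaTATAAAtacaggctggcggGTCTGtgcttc

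The 8 motifs were searched on both strands of 300-base windows, from 250 bases before to 50 bases after each annotated start, in 35116 promoters, and 8 of the 10 members had 10 such windows. None of the motifs overlapped another in the printed stretches. The JUN promoter held TGACATCA, an AP-1 type site that differs from the cyclic AMP response element, from base -67 to -60. The same letters lay at -123 to -116 in 1 of the 2 ATF3 windows, and 2.61% of all promoters held them. FOSB held TGACGTAA, a near match to the cyclic AMP response element, at -60 to -53, against 0.416% of all promoters. TGACATCA was searched as a JUN-type site and TGACGTAA as a FOSB-type element. Their presence in JUN and FOSB therefore follows from the choice of letters, and the shares are given for scale only. The full cyclic AMP response element TGACGTCA lay at -200 to -193 in JUND and at -54 to -47 in MAFF (1.85% of all promoters), and the TPA response element TGACTCA at 5 to 11 bases past the start in FOSL2 (4.95%). The SMAD box CAGAC was found in FOSB, FOSL2, ATF3 and MAFF and in 45.3% of all promoters. The TATA box TATAAA was found in FOS, FOSB, JUNB and ATF3 (11.5%), and the CCAAT box CCAAT in JUN, JUNB, JUND, ATF3 and MAFF (34.6%). The CArG box, the site of serum response factor, was in none of these 10 windows and in 1.29% of all promoters. Sites more than 250 bases before a start were not searched, and FOSL1 and BATF3 had no window. The absence therefore does not show that these genes lack such a site. A match is a description of letters, not of binding.

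TGFβ raised JUNB, JUN and FOSB and lowered FOSL2, ATF3, FOSL1, MAFF and JUND relative to untreated cells. That is 8 of 10 members, 3 higher and 5 lower, against a background of 38.6% of all tested genes called in this comparison, 18.5% higher and 20.1% lower. The median log2 fold change over the 10 members was -0.25, against -0.01 over all tested genes. FOS and BATF3 were not called. These 8 members also had no overlap between the values of the 2 groups, as did 46.4% of all genes, 22% higher and 24.4% lower. In such bulk libraries a change in the share of cells of one kind and a change in RNA per cell cannot be told apart. The 8 calls and their directions held in all 19 other fits of this comparison.

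**Figure D1:**
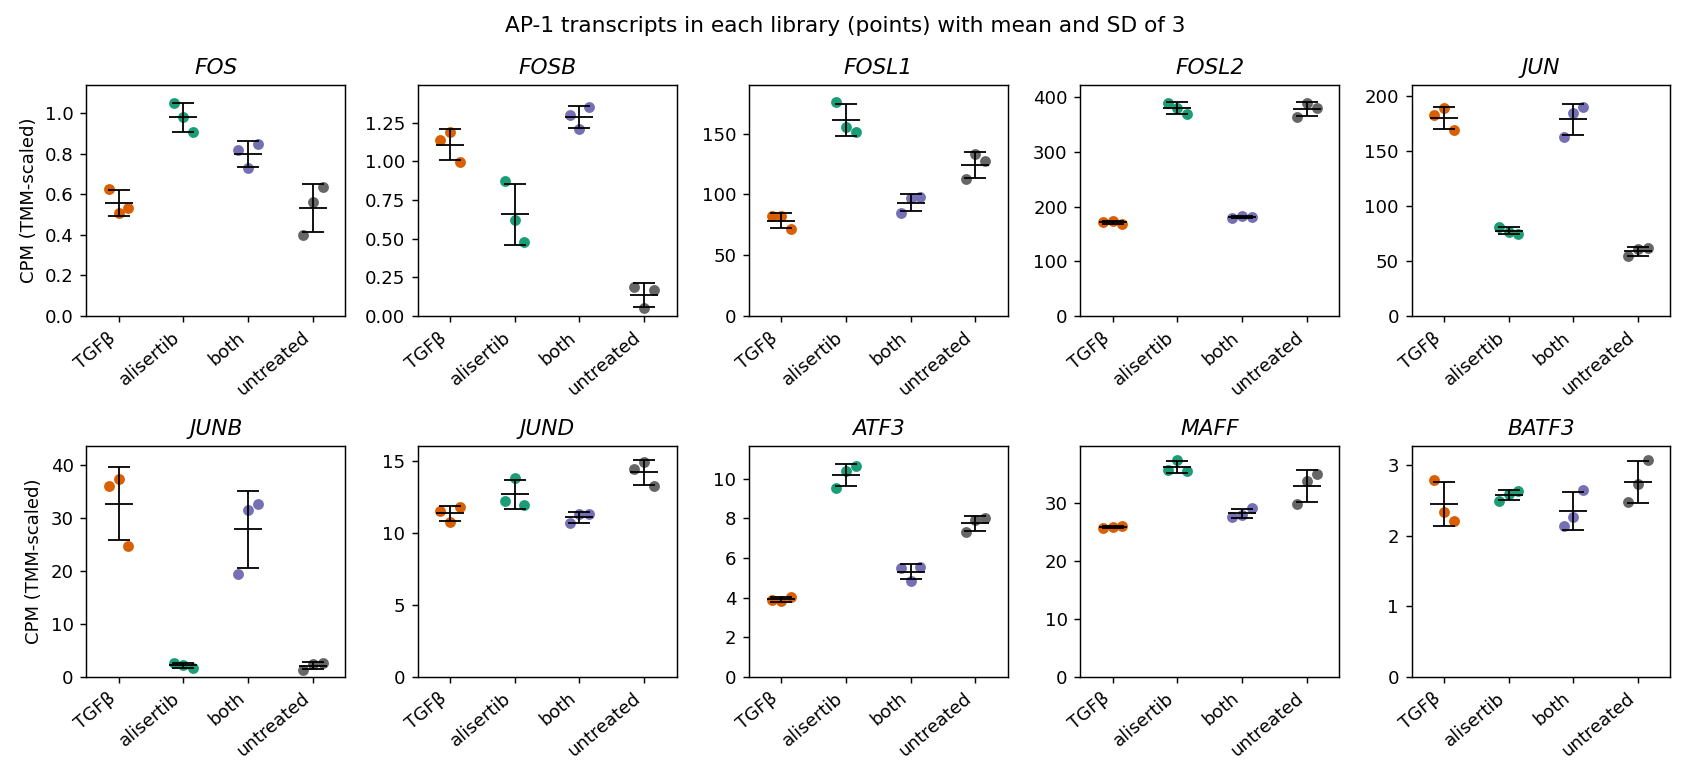
Level of each AP-1 transcript in CPM (TMM-scaled; linear axes from 0) in each of 12 libraries (points), with the mean and SD of 3 libraries (bars), for TGFβ, alisertib, the combination and untreated cells. JUNB lies at 24.8 to 37.5 CPM with TGFβ and 1.29 to 2.54 CPM in untreated cells, while FOSL2 lies at 168.5 to 172.8 CPM with TGFβ and 364.3 to 390.1 CPM in untreated cells.

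JUNB, a JUN protein whose gene is a known rapid target of TGFβ, moved furthest. Its level was 36.1, 37.5 and 24.8 CPM with TGFβ (libraries 4 to 6), 2.54, 2.24 and 1.68 CPM with alisertib (7 to 9), 19.4, 31.5 and 32.7 CPM with the combination (10 to 12), and 1.29, 2.31 and 2.54 CPM in untreated cells (1 to 3). Every library with TGFβ was above every library without it, and within each group the lowest value was that of the library that stood apart. The mean was 32.8 ± 6.95 CPM with TGFβ and 2.05 ± 0.665 CPM in untreated cells (SD, n = 3 each), a 16-fold rise. The log2 fold change was 4 ± 0.27 (SE; adjusted p = 2.02e-08), and only 0.865% of all genes had a larger change in either direction. It was 3.92 when the 4 libraries that stood apart were left out, and 3.65 with a correction of each gene for GC content and length. JUNB (ENSG00000171223, chromosome 19 from 12902310 to 12904124 in hg19) overlaps HOOK2 in the annotation, and the library kit did not mark strand. HOOK2 lay at 10.8 CPM with TGFβ and 8.69 CPM in untreated cells, a log2 fold change of 0.31 ± 0.11 (adjusted p = 0.0472).

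JUN, the founding member, whose protein can act as a dimer with itself, had 182.4, 188.9 and 168.9 CPM with TGFβ, 80.9, 76.6 and 74.5 CPM with alisertib, 162.5, 184 and 189.6 CPM with the combination, and 54.1, 60.4 and 62 CPM in untreated cells. The 6 libraries with TGFβ were all above the other 6, and the alisertib libraries were all above the untreated ones. With TGFβ the rise was 3.06-fold (log2 1.61 ± 0.07 SE, adjusted p = 1.93e-10). JUN (ENSG00000177606, chromosome 1 from 59246465 to 59249785 in hg19) overlaps no other gene of the table.

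JUND (ENSG00000130522, chromosome 19 from 18390563 to 18392432), a JUN protein that is made more constantly than the other two, lay at 10.8 to 11.8 CPM with TGFβ, 11.9 to 13.8 CPM with alisertib, 10.6 to 11.3 CPM with the combination and 13.2 to 14.9 CPM in untreated cells. Its fall with TGFβ was -0.32 ± 0.08 on the log2 scale (SE; adjusted p = 0.00418), and the TGFβ and untreated values did not overlap. With the GC and length offset the value was -0.75 (adjusted p = 0.0418), and JUND is the most GC-rich of the 10 members, at 69.7%.

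The FOS family divided. FOSL2, which encodes the FOS-related antigen FRA-2 and lies on chromosome 2 from 28615315 to 28640179 (ENSG00000075426), had 172.7, 172.8 and 168.5 CPM with TGFβ, 390.2, 380.8 and 368.9 CPM with alisertib, 178.7, 183.3 and 180.6 CPM with the combination, and 364.3, 390.1 and 380.4 CPM in untreated cells. The values with and without TGFβ were far apart, and the alisertib and untreated values overlapped. FOSL2 fell with TGFβ to 171.3 ± 2.42 CPM, against 378.3 ± 13 CPM in untreated cells (SD, n = 3 each), with a log2 fold change of -1.14 ± 0.04 (SE; adjusted p = 3.13e-11).

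FOSL1 (ENSG00000175592, chromosome 11 from 65659520 to 65668044), which encodes FRA-1, had 81.8, 81.8 and 71.7 CPM with TGFβ, 175.7, 155.4 and 151.1 CPM with alisertib, 85, 96.6 and 97.8 CPM with the combination, and 112.6, 133.2 and 127.4 CPM in untreated cells. The 4 groups did not overlap, in the rising order TGFβ, combination, untreated and alisertib. The log2 fold change with TGFβ was -0.67 ± 0.08 (SE; adjusted p = 1.25e-05).

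FOSB, an immediate early FOS protein, rested on few reads, with 121, 127 and 114 counts with TGFβ, 95, 65 and 48 with alisertib, 135, 131 and 157 with the combination, and 18, 5 and 17 in untreated cells. In CPM it lay at 0.997 to 1.19 with TGFβ, 0.479 to 0.87 with alisertib, 1.21 to 1.35 with the combination and 0.0485 to 0.19 in untreated cells, with no overlap between any 2 groups. The rise with TGFβ was 8.22-fold (log2 3.04 ± 0.32 SE, adjusted p = 2.99e-06). Because untreated library 2 had only 5 reads, FOSB met the filter on low counts through the treated groups. Each fold change of FOSB against untreated cells therefore rests on a reference near the floor. FOSB (ENSG00000125740, chromosome 19 from 45971253 to 45978437 in hg19) overlaps ERCC1, which had 51.1 CPM with TGFβ and 41.2 CPM in untreated cells, a log2 fold change of 0.31 ± 0.11 (adjusted p = 0.0423). At the level of FOSB, reads of ERCC1 assigned to FOSB cannot be told apart from its own.

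FOS itself (ENSG00000170345, chromosome 14 from 75745477 to 75748933), the prototype immediate early gene, was near the lower end of what was tested, with 67, 54 and 61 counts with TGFβ, 115, 103 and 91 with alisertib, 85, 79 and 99 with the combination, and 38, 58 and 65 in untreated cells. It lay at 0.506 to 0.628 CPM with TGFβ and 0.401 to 0.635 CPM in untreated cells, which overlap. The log2 fold change was 0.06, with a 95% interval of -0.39 to 0.51, so the interval spans both directions.

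Of the other bZIP members, ATF3 (ENSG00000162772, chromosome 1 from 212738676 to 212794119), a stress-induced factor that pairs with JUN proteins, had 3.85, 3.81 and 4.04 CPM with TGFβ, 9.54, 10.4 and 10.6 CPM with alisertib, 5.48, 4.86 and 5.54 CPM with the combination, and 7.31, 7.91 and 8.03 CPM in untreated cells. The 4 groups did not overlap, in the same rising order as FOSL1. Its log2 fold change with TGFβ was -0.99 ± 0.08 (SE; adjusted p = 2.71e-07). MAFF (ENSG00000185022, chromosome 22 from 38597889 to 38612518), a small MAF protein without an activation domain of its own, lay at 25.6 to 26 CPM with TGFβ, 35.6 to 37.4 CPM with alisertib, 27.6 to 29.1 CPM with the combination and 29.8 to 35.1 CPM in untreated cells. Its log2 fold change with TGFβ was -0.35 ± 0.06 (SE; adjusted p = 0.000403), or -0.63 with the GC and length offset, and its locus overlaps PLA2G6, which had 2.43 CPM with TGFβ and 2.32 CPM in untreated cells. BATF3 (ENSG00000123685, chromosome 1 from 212859760 to 212873327), a JUN partner known from dendritic cells, lay at 2.21 to 2.79 CPM with TGFβ, 2.49 to 2.63 with alisertib, 2.13 to 2.64 with the combination and 2.48 to 3.07 in untreated cells. These ranges overlapped in every pair of groups, and BATF3 was called in none of the 6 comparisons by edgeR.

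**Figure D2:**
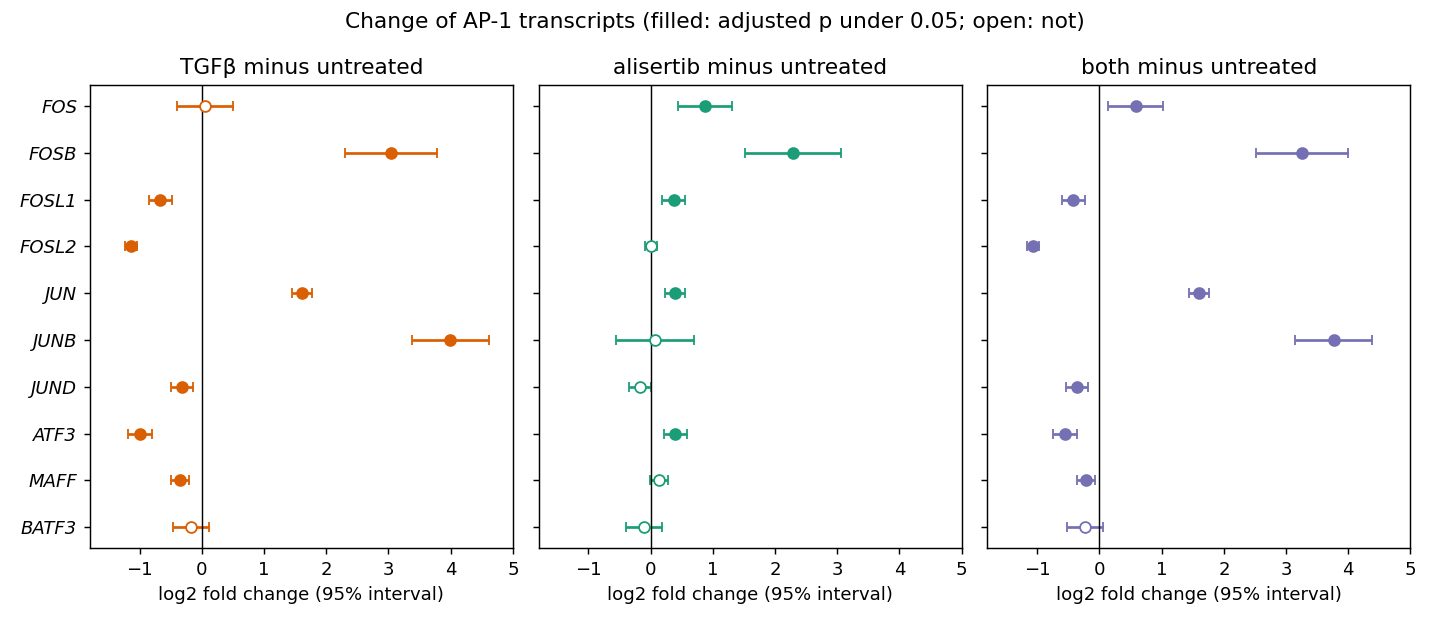
Log2 fold change of each member relative to untreated cells with its 95% interval (bars), for TGFβ, alisertib and the combination, filled where the adjusted p was under 0.05. JUNB, FOSB and JUN lie to the right with TGFβ and FOSL2, ATF3, FOSL1, MAFF and JUND to the left, while no member is called lower with alisertib.

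Scaled to length, the order of the members changed with TGFβ. Levels per length are given here as RPKM, computed from the TMM-scaled counts and the gene lengths of the deposited table. In untreated cells FOSL1 led at 65.9 ± 5.63 RPKM, followed by FOSL2 at 52.9 ± 1.82, JUN at 17.7 ± 1.26, MAFF at 11 ± 0.924, JUND at 7.59 ± 0.461 and ATF3 at 1.94 ± 0.0963 (SD, n = 3 each). JUNB at 1.13 ± 0.367 and BATF3 at 1.02 ± 0.108 RPKM overlapped, and FOS (0.165) and FOSB (0.0243) came last. With TGFβ the order began with JUN at 54.2 ± 3.07 RPKM, then FOSL1 at 41.6 ± 3.11, FOSL2 at 23.9 ± 0.339, JUNB at 18.1 ± 3.83 and MAFF at 8.68 ± 0.0624 (SD, n = 3 each). JUND followed at 6.07 RPKM, then ATF3 at 0.974 and BATF3 at 0.902, whose values overlapped, and FOSB at 0.199 and FOS at 0.172, which did not differ beyond their spread of 0.0179 and 0.0198. The order with the combination was that with TGFβ down to JUND, although JUN at 53.8 ± 4.3 and FOSL1 at 49.4 ± 3.75 RPKM were within their spread there. The order with alisertib was that in untreated cells down to JUNB.

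The summed level of the 3 JUN genes was 78.4 ± 6.62 RPKM with TGFβ, 31.2 ± 1.34 with alisertib, 75.1 ± 8.54 with the combination and 26.4 ± 1.49 in untreated cells (SD, n = 3 each). The 4 FOS genes summed to 65.9 ± 3.47 RPKM with TGFβ, 138.7 ± 8.38 with alisertib, 75.1 ± 4 with the combination and 119 ± 7.49 in untreated cells. The ratio of the FOS sum to the JUN sum was 0.815 to 0.873 with TGFβ, 4.29 to 4.59 with alisertib, 0.957 to 1.08 with the combination and 4.46 to 4.57 in untreated cells. Libraries with TGFβ therefore held about as much JUN-family as FOS-family transcript, and libraries without it held over 4 times as much FOS-family transcript. JUNB made up 22.9% of the JUN sum with TGFβ, 3.78% with alisertib, 20.2% with the combination and 4.22% in untreated cells, and JUND made up 7.8% with TGFβ, 21.7% with alisertib, 7.94% with the combination and 28.8% in untreated cells. FOSL1 and FOSL2 made up nearly all of the FOS sum, with FOSL1 at 63% with TGFβ, 61.4% with alisertib, 65.7% with the combination and 55.4% in untreated cells, while the share of FOS and of FOSB did not exceed 0.359% in any library. These sums are descriptions of chosen genes and carry no test.

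**Figure D3:**
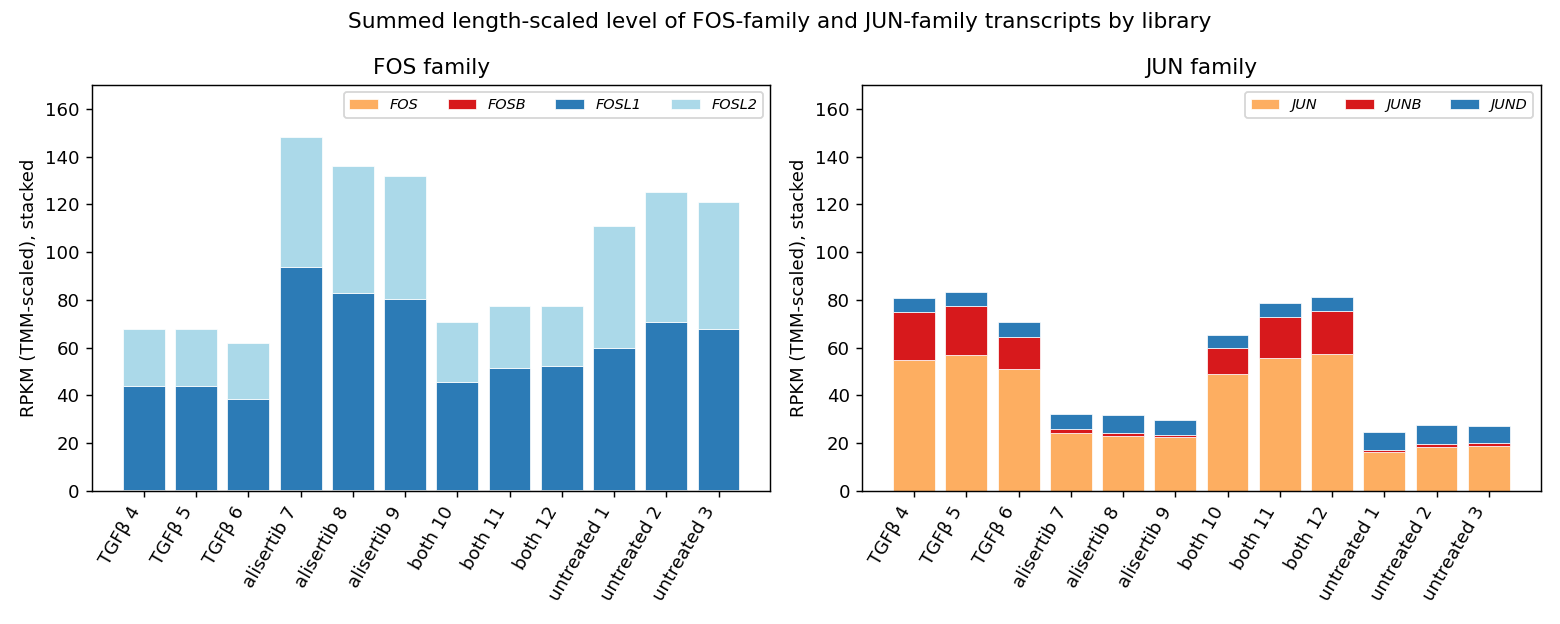
Stacked RPKM (TMM-scaled; y axis from 0) of the FOS-family genes (left) and JUN-family genes (right) in each of 12 libraries, ordered TGFβ, alisertib, combination and untreated. FOS and FOSB are too low to be seen; the JUN sum averages 78.4 RPKM with TGFβ and 26.4 RPKM in untreated cells, the FOS sum 65.9 and 119 RPKM.

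Alisertib alone raised FOSB, FOS, ATF3, JUN and FOSL1 and lowered no member relative to untreated cells. That is 5 of 10 members, against a background of 6.74% of all tested genes, 3.55% higher and 3.19% lower, and 21.6% of all genes had no overlap between the groups, 11.2% higher and 10.4% lower. The median log2 fold change was 0.25 over the members and -0.01 over all tested genes. FOSB was 4.89-fold higher (log2 2.29 ± 0.34 SE, adjusted p = 0.000988), with 0.656 ± 0.198 CPM with alisertib and 0.135 ± 0.0758 CPM in untreated cells (SD, n = 3 each), and 0.297% of all genes had a larger change. FOS was 1.84-fold higher, at 0.909 to 1.053 CPM with alisertib and 0.401 to 0.635 CPM in untreated cells (log2 0.88 ± 0.19 SE, adjusted p = 0.0126). ATF3, JUN and FOSL1 rose by 0.4 ± 0.08, 0.39 ± 0.07 and 0.37 ± 0.08 on the log2 scale (adjusted p = 0.01, 0.00339 and 0.0142). MAFF was not called, although its alisertib values all lay above the untreated ones (log2 0.14, 95% interval -0.003 to 0.281). Its unadjusted p by edgeR was 0.0407 and its adjusted p 0.227. With the covariate for variation shared within groups MAFF was called (0.14, adjusted p = 0.0113), which made 6 members. FOSL2 (95% interval -0.09 to 0.1) and JUNB (-0.56 to 0.7) were not called either, and the JUNB interval is wide.

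The alisertib calls of FOSB, ATF3 and JUN held without any 1 library. The call of FOS was lost without alisertib 7 (adjusted p = 0.059) and when only the alisertib and untreated libraries were fitted (adjusted p = 0.0532). The call of FOSL1 was lost without alisertib 7 (adjusted p = 0.0842) or untreated 3 (adjusted p = 0.0544), so that 3 members were called without alisertib 7. Without the 4 libraries that stood apart 5 members were again called higher and none lower. By edgeR 0 members were lower here, also at an unadjusted p under 0.05, where 6 were higher, and DESeq2 called 5 higher and 0 lower. The background itself depended on the scaling, with 730 genes higher and 657 lower in all, against 1471 higher and 2114 lower with the GC and length offset.

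With the combination JUNB, FOSB, JUN and FOS rose and FOSL2, ATF3, FOSL1, JUND and MAFF fell against untreated cells. That is 4 higher and 5 lower, 9 of 10 members, against 39.7% of all tested genes, 19.4% higher and 20.3% lower, and 45.7% of all genes had no overlap, 21.9% higher and 23.8% lower. JUNB, FOSB and JUN were 13.6-fold, 9.54-fold and 3.04-fold higher (adjusted p = 3.75e-08, 1.32e-06 and 2.11e-10). FOSL2, ATF3, FOSL1, JUND and MAFF had log2 fold changes of -1.06 ± 0.04, -0.55 ± 0.08, -0.42 ± 0.08, -0.36 ± 0.08 and -0.22 ± 0.06 (SE). With the GC and length offset FOSL1 was at -0.7, JUND at -0.75 and MAFF at -0.5. FOS was the fourth to rise, at 0.728 to 0.85 CPM with the combination and 0.401 to 0.635 CPM in untreated cells (log2 0.58 ± 0.19 SE, adjusted p = 0.0246). Its call was lost without untreated 1 (adjusted p = 0.108), combination 10 (0.0562) or combination 12 (0.0899), by DESeq2 (0.0551), without a filter on low counts (0.0606), without the 4 libraries that stood apart (0.194) and in the fit of the 2 groups alone (0.0767). The call of MAFF was lost without untreated 3 (adjusted p = 0.0586) and in the fit of the 2 groups alone (0.0575).

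In alisertib-treated cells, adding TGFβ raised JUNB, JUN and FOSB and lowered FOSL2, ATF3, FOSL1 and MAFF, 7 of 10 members against 38.4% of all tested genes, 19.4% higher and 19% lower, while 50.3% had no overlap, 24.4% higher and 25.8% lower. JUNB was 12.9-fold higher, at 27.9 ± 7.36 CPM with the combination and 2.15 ± 0.436 CPM with alisertib (SD, n = 3 each), and JUN was 2.31-fold higher. FOSB rose 1.95-fold (log2 0.96 ± 0.26 SE, adjusted p = 0.00879). Its call was lost without alisertib 9, where the adjusted p was 0.05 after rounding. FOSL2, ATF3, FOSL1 and MAFF had log2 fold changes of -1.07 ± 0.04, -0.95 ± 0.08, -0.79 ± 0.08 and -0.36 ± 0.06 (SE), and MAFF was at -0.68 with the GC and length offset. JUND, at 10.6 to 11.3 CPM with the combination and 11.9 to 13.8 CPM with alisertib, was not called (adjusted p = 0.0658), but was without alisertib 9 (0.0455) or without the 4 libraries that stood apart (0.0312). HOOK2, which overlaps JUNB, was higher in the same comparison by 0.52 ± 0.12 on the log2 scale (adjusted p = 0.00251).

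In TGFβ-treated cells, adding alisertib raised 1 of 10 members, ATF3, against 2.08% of all tested genes, 1.19% higher and 0.89% lower, while 20.4% had no overlap, 11.1% higher and 9.33% lower. At an unadjusted p under 0.05, 3 members were higher and 0 lower, and DESeq2 called 1 and 0. ATF3 lay at 5.29 ± 0.378 CPM with the combination and 3.9 ± 0.125 CPM with TGFβ (SD, n = 3 each), a log2 fold change of 0.44 ± 0.08 (SE; adjusted p = 0.0147). The call was lost without TGFβ 4 (adjusted p = 0.0821), TGFβ 5 (0.079), combination 10 (0.0592) or combination 12 (0.0893) and in the fit of the 2 groups alone (0.0544). FOSL1, FOS, FOSB, FOSL2 and MAFF were not called, although their values with the combination all lay above those with TGFβ. FOSL1 had a log2 fold change of 0.25 ± 0.08 (SE; adjusted p = 0.169). It was called without the 4 libraries that stood apart (adjusted p = 0.000925), where JUNB was called at a log2 fold change of -0.2 (0.0467). FOSL1 was also called with the GC and length offset (0.00515). With the covariate for variation shared within groups FOSL1 (1.49e-05), FOSL2 (0.0313) and MAFF (0.0393) were called higher. JUNB was called lower there (log2 -0.245, adjusted p = 0.0018).

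The alisertib effect was compared between cells with and without TGFβ by the interaction: combination minus TGFβ, less alisertib minus untreated. By edgeR 0 of 10 members passed, against 0.282% of all tested genes, 0.117% higher and 0.165% lower, and 2 members had an unadjusted p under 0.05. These were FOSB (log2 -2.07 ± 0.42 SE, adjusted p = 0.0685) and JUN (-0.41 ± 0.1 SE, adjusted p = 0.139). FOSB was 4.89-fold higher with alisertib in cells without TGFβ and 1.16-fold higher in cells with it, and JUN was 1.31-fold higher and 0.992-fold. DESeq2 called both members, with adjusted p of 0.000774 for FOSB and 0.0285 for JUN. Both were also called without the 4 libraries that stood apart, without a filter on low counts, with a covariate for variation shared within groups and with the GC and length offset. With RLE scaling neither was called (adjusted p = 0.0578 for FOSB and 0.0943 for JUN). Without untreated 1 FOSB was called (adjusted p = 0.0217), but it was not without any other 1 library (up to 0.183). JUN was not called without any 1 library (adjusted p = 0.1 to 0.382). For ATF3 the interaction was 0.05, with a 95% interval of -0.22 to 0.32, and for FOSL1 -0.12, with an interval of -0.39 to 0.14.

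**Figure D4:**
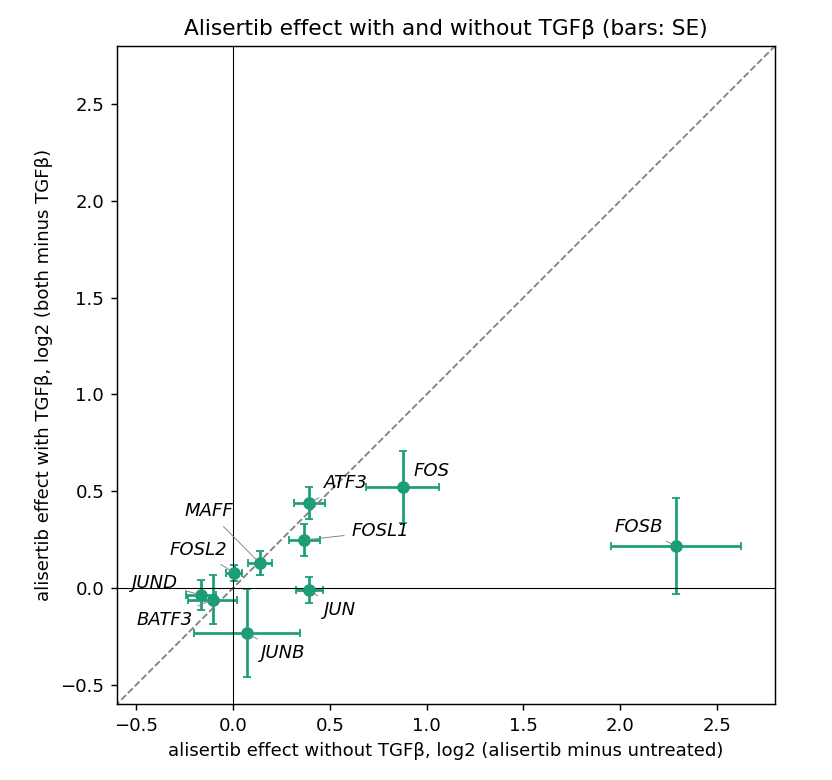
Log2 effect of alisertib on each member in cells with TGFβ (vertical, combination minus TGFβ) against that in cells without TGFβ (horizontal, alisertib minus untreated); bars are SE and the dashed line marks equal effects. FOSB lies at 0.22 with TGFβ and 2.29 without it, and JUN at -0.01 with TGFβ and 0.39 without it, while ATF3 lies near the line.

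Genes that act on AP-1 or beside it were taken from 6 lists of textbook genes. Their counts stand against 18.5% of all tested genes higher and 20.1% lower with TGFβ, and none of them was tested against that background. Of 28 tested genes of the MAP kinase cascade, TGFβ raised 3 and lowered 8 (median log2 fold change -0.06, against -0.01 over all genes), and these 11 of 28 are near the background of 38.6%. MAPK13, a p38 kinase, was 2.67-fold higher, at 178.2 ± 13 CPM with TGFβ and 66.7 ± 6.82 CPM in untreated cells, and MAPK7 and MAP2K1 rose by 0.65 ± 0.14 and 0.46 ± 0.04 on the log2 scale. MAP3K5 and MAP3K1, kinases upstream of JNK, had log2 fold changes of -1.89 ± 0.09 and -1.4 ± 0.06, and MAP2K3 of -0.41 ± 0.09. Without TGFβ 4 the counts were 3 and 4, with the covariate for variation shared within groups 9 and 11, without the 4 libraries that stood apart 8 and 10, and with the GC and length offset 6 and 11. Of 6 tested genes of serum response factor and its partners, which drive FOS and other immediate early genes, 5 rose with TGFβ and 0 fell, also 0 at an unadjusted p under 0.05 and by DESeq2. The ternary complex factor ELK3 rose 2.48-fold, the coactivator MKL1 2.37-fold and SRF 1.36-fold. With the GC and length offset 3 rose.

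Of 19 coregulators and turnover factors of AP-1, 4 rose with TGFβ and 5 fell (median 0.01), near the background of 18.5% higher and 20.1% lower. With the GC and length offset 8 rose and 4 fell. The AP-1 partner NFATC2 and the transcription factors ETS1 and RUNX1 rose by 0.86 ± 0.05, 0.65 ± 0.04 and 0.36 ± 0.04 on the log2 scale, while SMAD3, SMAD2 and TEAD4 had log2 fold changes of -0.69 ± 0.04, -0.63 ± 0.07 and -0.54 ± 0.1. Of 26 other bZIP factors 9 rose and 9 fell (median 0.01), against 18.5% and 20.1% of all genes. JDP2, a repressor that pairs with JUN, was 1.91-fold higher, at 9.03 ± 0.175 CPM with TGFβ and 4.73 ± 1.02 CPM in untreated cells, and the small MAF gene MAFK was 1.84-fold higher, opposite in direction to MAFF. NFE2L3, NFIL3 and NFE2L2, the last a regulator of antioxidant genes, had log2 fold changes of -0.83 ± 0.07, -0.61 ± 0.07 and -0.39 ± 0.07.

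Of 23 immediate early genes outside AP-1, TGFβ raised 10 and lowered 4 (median 0.21), against 18.5% of all genes higher and 20.1% lower, so the count of lower genes is near the background. TRIB1, GADD45B and SGK1 rose 3.67-fold, 3.3-fold and 3.01-fold, and IER5 and CYR61 had log2 fold changes of -0.58 ± 0.05 and -0.21 ± 0.04. Of 26 genes known as AP-1 targets, 15 rose and 6 fell (median 0.69), against the same 18.5% and 20.1%. MMP9, a matrix metalloproteinase, was 31.9-fold higher and PLAU, the urokinase plasminogen activator, 5.53-fold, whereas IL8, AXL and EZR had log2 fold changes of -1.08 ± 0.07, -0.57 ± 0.04 and -0.46 ± 0.04. MMP9 lay at 27.6 CPM with TGFβ and 0.861 CPM in untreated cells. Genes named from the lists had a mean of at least 5 CPM over the 12 libraries, which MMP9 reached through the groups with TGFβ. Many of the genes in this list are also known targets of SMAD proteins.

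With alisertib alone, 7 of the 23 other immediate early genes rose and 0 fell by edgeR (median log2 fold change 0.24, against -0.01 over all genes), where 3.55% of all tested genes were higher and 3.19% lower. At an unadjusted p under 0.05 the counts were 13 and 1, and DESeq2 called 8 and 0. The phosphatase gene DUSP1 was 1.68-fold higher, at 15.5 ± 0.134 CPM with alisertib and 9.21 ± 0.721 CPM in untreated cells (SD, n = 3 each), TRIB1 1.67-fold and the stress gene PPP1R15A 1.61-fold. Without the 4 libraries that stood apart 14 rose and 1 fell. Of 26 AP-1 targets 7 rose and 1 fell (median 0.19), against the same 3.55% and 3.19%, among them MMP9 and IL11, by 1.98-fold and 1.47-fold. MMP9 lay at only 1.71 ± 0.108 CPM with alisertib and 0.861 ± 0.159 CPM in untreated cells. It met the rule for naming genes through the groups with TGFβ. The counts of AP-1 targets were 12 and 2 without the 4 libraries that stood apart. They were 4 and 0 without alisertib 7 or alisertib 8, and 5 and 0 without untreated 2, untreated 3 or alisertib 9.

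The other 4 lists are set against 6.74% of all tested genes called with alisertib alone, 3.55% higher and 3.19% lower. Among other bZIP factors 2 rose and 1 fell, with DDIT3, a stress-induced factor, 1.39-fold higher, and the counts were 4 and 3 without untreated 1 and 6 and 4 without the 4 libraries that stood apart. Among coregulators ETS1 and NFATC2 rose 1.3-fold and 1.16-fold and 0 fell, against 3 lower at an unadjusted p under 0.05 and 0 by DESeq2. That count was 1 and 0 without untreated 2 or 3 or any 1 alisertib library. It was 3 higher and 3 lower without the 4 libraries that stood apart, 3 and 6 with the covariate, and 2 and 3 with the GC and length offset. In the MAP kinase cascade 0 rose and 2 fell, with MAP3K1 at a log2 fold change of -0.2 ± 0.05 (adjusted p = 0.0422). At an unadjusted p under 0.05 the counts by edgeR were 1 and 3, and DESeq2 called 0 and 1. There 2 rose and 11 fell without the 4 libraries that stood apart, and none was called without untreated 2 or 3 or alisertib 7 or 8. It was 1 lower without alisertib 9, combination 12 or any 1 TGFβ library. Of the 6 genes around serum response factor edgeR called 0 and DESeq2 0, with 1 higher and 2 lower at an unadjusted p under 0.05 and 1 higher without untreated 1. Without the 4 libraries that stood apart 1 was higher and 1 lower. With the covariate or the GC and length offset 1 was higher and 2 lower.

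In the interaction 2 of the 23 other immediate early genes, SGK1 and KLF10, were lower, against 0.165% of all tested genes, at -0.62 ± 0.11 and -0.36 ± 0.07 on the log2 scale (SE; adjusted p = 0.0258 and 0.0408). DESeq2 called 5 lower, and the count was 4 without untreated 1 and 0 or 1 without any other library. It was 7 lower without the 4 libraries that stood apart and 7 with the covariate for variation shared within groups. With the GC and length offset or without a filter on low counts it was 4 lower. Of the AP-1 targets 1 was lower, IL11 at -0.52 ± 0.09 (SE; adjusted p = 0.0258), which was not called without untreated 2 or 3, any 1 TGFβ library, alisertib 7 or 8, or combination 10 or 11. The targets called were 3 lower by DESeq2 and without the 4 libraries that stood apart, and 4 lower with the offset. With the covariate 1 was higher and 8 lower. Over all genes the 58 interaction calls likewise became 744 without those 4 libraries, 331 with the offset and 641 with the covariate.

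Genes whose levels over the 4 groups were most like those of JUNB, FOSB and JUN were found by the root mean square difference of the 4 group means on the log2 scale, each centred on its own mean, among 10595 genes with at least 5 CPM. Nearest to JUNB were PMEPA1 (0.15), ADAMTS7 (0.18) and TNS1 (0.21). PMEPA1, a feedback inhibitor of TGFβ signalling, lay at 1098 CPM with TGFβ, 92.1 with alisertib, 956 with the combination and 82.8 in untreated cells. Nearest to JUN were ADAM12 (0.03), ZFP36L1 (0.03) and DGKA (0.04). ZFP36L1, which encodes an RNA-binding protein that destabilises AU-rich transcripts, lay at 300.1 CPM with TGFβ, 125.3 with alisertib, 280.8 with the combination and 97.3 in untreated cells. FOSB had no gene as near, with ANGPTL4 at 0.33, PTPRR at 0.47 and SCG5 at 0.48. ANGPTL4, a lipoprotein lipase inhibitor, lay at 15.5 CPM with TGFβ, 8.05 with alisertib, 27.3 with the combination and 2.9 in untreated cells. The measure rests on 4 group means only and is a description.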

How the data were processed

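The RNA came from a miRNeasy extraction and the libraries from the TruSeq RNA v2 kit, per the labels, a kit without strand information. Tools named are bcl2fastq, TopHat, Subread and featureCounts, with build hg19, per the submitters' processing notes. Their versions and settings and the gene annotation are not given in the sources used here. Gene read counts are whole numbers, deposited without normalisation. RPKM values stand beside them, made by the authors with denominators of 1.1 to 1.11 times each library's total count. The deposited RPKM served only as another scale for the levels.

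Counts were tested with edgeR 4.0.16 in R 4.3.3: filterByExpr, TMM factors and 1 robust quasi-likelihood fit of all 12 libraries with 8 residual degrees of freedom, with Benjamini-Hochberg adjustment over 20571 genes and calls at an adjusted p under 0.05. SE were derived from the F statistic, and 95% intervals use the 8 degrees of freedom. The F test also uses spread shared across genes, so an interval can span both directions where the unadjusted p is under 0.05. Replicate libraries of a group differed by more than counting noise in every pair. Alternatives were DESeq2 1.42.0, RLE scaling, no filter, only the 2 groups compared, each library left out, a GC and length offset (GENCODE 29, 19649 genes), the first within-group component as covariate, and the 4 libraries that stood apart left out together. List counts under these were added after seeing the data. All 10 members are named. Of each list up to 3 called genes in each direction with at least 5 CPM are named in the comparisons described, apart from a gene that is not reported here. Genes like a member exclude clone-based symbols. Members, lists and rules were chosen with earlier results of these data known. Promoters are RefSeq's.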

Additional observations from a re-analysis of the deposited data

How the results depend on the processing

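No paired analysis was possible because the replicate numbers are not shared between groups. Of the members' log2 fold changes under alternatives, 187 of 190 kept their direction and side of the threshold for TGFβ minus untreated, 180 of 190 for alisertib minus untreated, 181 of 190 for combination minus untreated, 171 of 190 for combination minus TGFβ, 185 of 190 for combination minus alisertib and 159 of 180 for the interaction. Members called in combination minus TGFβ numbered 1, and 2 with the GC and length offset, 5 with the component covariate, 0 with only those 2 groups and 3 without the 4 libraries that stood apart (leaving 1 out, 0 to 1). In the interaction they numbered 0, and 2 with DESeq2, without a filter, with the offset and without those 4 libraries, and 3 with the covariate (leaving 1 out, 0 to 1). With alisertib alone they numbered 5, 6 with the covariate and 3 to 5 leaving 1 out. Over all genes, the 1387 calls of alisertib minus untreated became 3585 with the offset, 5170 with the covariate, 623 with only those 2 groups, 5073 without the 4 libraries and 718 to 2598 leaving 1 out. The 428 of combination minus TGFβ became 1838 (615 higher and 1223 lower, against 245 and 183), 3052, 1434 without the 4 libraries and 153 to 754 leaving 1 out. The 58 of the interaction became 145 with DESeq2, 105 without a filter, 331, 641, 744 without the 4 libraries and 19 to 166 leaving 1 out. The cause was not tested.

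The changes that turned sign were uncalled in both fits. With the offset JUND was 0.008 in combination minus TGFβ and BATF3 0.005 in combination minus alisertib. Without the 4 libraries FOS was -0.076 in TGFβ minus untreated, JUNB -0.015 in alisertib minus untreated, JUN 0.008 and JUND 0.021 in combination minus TGFβ, and MAFF 0.056 in the interaction. Leaving 1 library out, FOS ranged from -0.106 to 0.204 in TGFβ minus untreated. In alisertib minus untreated FOSL2 ranged from -0.02 to 0.034 and JUNB from -0.168 to 0.264. In combination minus TGFβ BATF3 ranged from -0.17 to 0.045 and JUN from -0.068 to 0.052. In the interaction ATF3 ranged from -0.01 to 0.104, BATF3 from -0.067 to 0.15 and MAFF from -0.074 to 0.054. On the deposited RPKM scale, log2 with a pseudocount of 0.1, the 40 group levels were lower by 0.02 to 0.194. FOS and FOSB rested on 5 to 157 reads a library, which limits their precision.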
